A study of Mus musculus with 9 samples.

Results

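In brown adipose tissue (BAT), 10 genes of 2 leukocyte surface protein families were followed, namely Ms4a4b, Ms4a4c, Ms4a4d, Ms4a6b, Ms4a6c, Ms4a6d and Ms4a7 of the Ms4a family, and Ly6a, Ly6c1 and Ly6c2 of the Ly6 family. They were 10 of the 16937 genes that the data list, and all 10 were listed in all 9 libraries. The genes were chosen by name and selected on their log2 fold changes, with the difference between cold and room temperature libraries already known. Their values in those comparisons are therefore given as a description with no p-value. BAT is the thermogenic fat of mammals, and acute cold drives it to burn fuel for heat. The mice were C57Bl/6J wild type (WT) mice or whole body Gcn2-/- mice (GCN2 KO), which lack the amino acid sensing kinase GCN2 in every tissue, so that no difference can be placed in BAT alone. All were adult animals reared at 23°C. The study used both sexes, and the sample labels give none. The groups named Cold spent 8 h at 4°C, WT Cold without and GCN2 KO Cold with the Gcn2 deletion, and the group WT RT remained at 23°C and was killed at the same time of day, with 3 libraries in each group. There was no GCN2 KO group at room temperature. Libraries within a group are called A, B and C here.

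MS4A proteins are small proteins that cross the plasma membrane several times, with both ends inside the cell. The best known is the B cell antigen CD20, made by Ms4a1, and the Ms4a4, Ms4a6 and Ms4a7 genes are known mainly from monocytes, macrophages and T cells. LY6 proteins are short, cysteine-rich proteins held on the outer face of the membrane by a lipid anchor. Ly6c2 makes the Ly6C antigen of inflammatory monocytes, Ly6c1 is known for its expression in endothelial cells, and Ly6a makes Sca-1, which marks progenitor and endothelial cells. Several genes of both families are known to respond to interferons.

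Read depth was even, from 27058799 to 30768064 reads on listed genes per library. WT RT library B had the highest level of 8 of the 10 genes, so each log2 fold change of the 10 genes against WT RT is also given without it. Libraries C of both cold groups held the Y-linked transcript Ddx3y at 7.02 and 10.5 reads per 1000000 reads of the library (CPM), against 84.8 to 144 CPM in the other 7 libraries, and each value of GCN2 KO Cold against WT Cold was also computed without those 2. Both libraries C held the X-linked transcript Xist at 131 and 127 CPM, against 11.2 to 43.5 CPM in the other 7. WT RT had no such library, so the cold groups differed from WT RT in this too. Without library C of the cold group, 7 of the 10 genes were called in each comparison with WT RT. Eif2ak4, the gene of GCN2, had 6.46, 8.31 and 8.34 CPM in WT Cold, 11.9, 12.7 and 11.8 CPM in libraries labelled GCN2 KO Cold, and 11.1, 12.6 and 13.03 CPM in WT RT. It was thus not lower where the label says GCN2 KO, and these libraries are called GCN2 KO-labelled cold libraries. In addition, 1 sample of that group names both genotypes in its title and was placed by its genotype label, and the library it gave could not be singled out. The data count reads per gene, so a deletion within the gene was not tested. The authors' library codes begin differently for WT RT and for the cold groups, so that temperature and library set cannot be told apart.

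The 7 Ms4a genes lie within 284 kb of chromosome 19, and the 3 Ly6 genes within 117 kb of chromosome 15 (GENCODE M21 annotation of GRCm38). Each family therefore holds related genes side by side. Across the coding sequence, Ms4a4b and Ms4a4c were 91.7% identical over 678 aligned bases, Ms4a4c and Ms4a4d 85.4%, Ms4a4b and Ms4a4d 83.2%, and Ms4a6b and Ms4a6d 79.8%. Among the Ly6 genes, Ly6a and Ly6c2 were 81.6% identical, Ly6c1 and Ly6c2 79.9%, and Ly6a and Ly6c1 66.7%. No stretch of 150 bases of a Ms4a transcript occurred in another member. Ly6c1 and Ly6c2 shared 39 such stretches, which was 6.14% of those in Ly6c1 and 5.79% of those in Ly6c2, so a small part of their reads could not be assigned to one of them. The exons of Ms4a6c overlap those of BE692007 on the opposite strand over 1088 bases, and the protocol does not mark strand, so reads from that part are uncertain as well.

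The RefSeq table (GRCm38.p6) held a promoter for 8 of the 10 genes, from 250 bases before to 50 bases after the start, and none for Ms4a6d or Ly6a. For Ly6c1, Ly6c2 and Ms4a7 it held 2 such windows, and only the first listed is described here. The promoters of Ly6c1 and Ly6c2 are shown first, because these paralogs differed in opposite directions between cold and room temperature. Capitals mark the motif matches described under them. Each sequence is given 5′ to 3′ on the strand of its gene.
Ly6c1 (chr15:75048788-75049087, minus strand): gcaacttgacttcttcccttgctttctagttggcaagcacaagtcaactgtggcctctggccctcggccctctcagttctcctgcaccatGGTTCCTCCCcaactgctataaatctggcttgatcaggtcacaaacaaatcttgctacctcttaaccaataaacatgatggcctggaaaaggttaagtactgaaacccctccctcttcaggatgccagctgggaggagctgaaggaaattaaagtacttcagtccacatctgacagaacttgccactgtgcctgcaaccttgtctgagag
Ly6c2 (chr15:75111922-75112221, minus strand): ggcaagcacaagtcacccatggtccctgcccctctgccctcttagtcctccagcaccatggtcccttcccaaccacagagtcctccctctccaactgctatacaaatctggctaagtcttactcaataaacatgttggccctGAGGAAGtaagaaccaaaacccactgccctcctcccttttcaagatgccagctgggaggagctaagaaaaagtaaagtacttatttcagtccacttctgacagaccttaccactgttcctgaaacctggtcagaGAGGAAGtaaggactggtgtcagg

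Aligned end to end, these promoters were 62.3% identical over 334 columns, of which 68 were gaps. Short motifs of 5 factors were searched on both strands, written with N for any base or with the number of bases between fixed parts. The PU.1 core GAGGAAG, bound by a transcription factor of myeloid cells, occurred at 2 positions in the Ly6c2 promoter, starting 108 bases before and 27 bases after the gene's start, and at none in that of Ly6c1. It occurred in 13.6% of the 32851 promoter windows searched. These did not cover every chromosome and are called all windows here. The NF-kappaB core, GGGA and CC with 4 bases between them, was found in the Ly6c1 promoter, 160 bases before the start, and also in those of Ms4a6c and Ms4a4d, against 20.7% of all windows. The C/EBP core TTGCNNAA was found in that of Ms4a4d, against 10.8% of all windows. Neither the interferon-stimulated response element core, GAAA and GAAA with 2 bases between them, nor the gamma-activated site TTCNNNGAA was found in any of the 8 promoters, and they occurred in 3.44% and 8.3% of all windows. A match of letters in this window is not a bound site, and a missing one says nothing of the factor elsewhere.

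The Ms4a4b and Ms4a4c promoters are shown because these genes had the most alike coding sequences but fold changes of different size in the cold. They were 71.4% identical over 318 columns, and neither held any of the motifs.
Ms4a4b (chr19:11443308-11443607, plus strand): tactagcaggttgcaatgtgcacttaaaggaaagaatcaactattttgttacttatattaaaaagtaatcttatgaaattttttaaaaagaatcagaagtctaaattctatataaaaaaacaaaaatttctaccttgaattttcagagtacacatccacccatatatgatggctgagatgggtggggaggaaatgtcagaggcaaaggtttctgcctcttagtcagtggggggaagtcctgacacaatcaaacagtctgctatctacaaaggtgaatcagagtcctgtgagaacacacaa
Ms4a4c (chr19:11407411-11407710, plus strand): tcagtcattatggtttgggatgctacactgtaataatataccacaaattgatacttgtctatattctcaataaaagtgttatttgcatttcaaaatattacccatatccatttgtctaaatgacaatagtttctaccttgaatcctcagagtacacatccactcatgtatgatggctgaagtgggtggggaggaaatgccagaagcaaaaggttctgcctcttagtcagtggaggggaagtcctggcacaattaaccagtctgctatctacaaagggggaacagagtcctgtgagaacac

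The Ms4a6b and Ms4a6c promoters are shown as a neighbouring pair whose log2 fold changes in the cold were of similar size. They were 51.2% identical over 375 columns, of which 150 were gaps, and the capitals in Ms4a6c mark its NF-kappaB core.
Ms4a6b (chr19:11518309-11518608, plus strand): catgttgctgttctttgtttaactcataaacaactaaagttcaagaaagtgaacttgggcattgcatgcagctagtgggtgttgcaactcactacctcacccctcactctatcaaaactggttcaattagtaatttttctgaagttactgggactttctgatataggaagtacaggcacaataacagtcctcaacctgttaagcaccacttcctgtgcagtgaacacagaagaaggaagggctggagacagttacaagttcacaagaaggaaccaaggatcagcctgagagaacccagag
Ms4a6c (chr19:11469118-11469417, plus strand): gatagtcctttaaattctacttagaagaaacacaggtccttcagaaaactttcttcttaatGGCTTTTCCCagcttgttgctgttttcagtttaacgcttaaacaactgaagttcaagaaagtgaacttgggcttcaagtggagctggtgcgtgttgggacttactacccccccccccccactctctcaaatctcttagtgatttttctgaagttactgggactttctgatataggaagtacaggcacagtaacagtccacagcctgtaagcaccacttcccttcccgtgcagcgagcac

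Levels of different genes were compared as RPKM, which is CPM per kilobase of exon. In WT RT, Ly6a (147 ± 40.0 RPKM, SD, n = 3) and Ly6c1 (63.5 ± 3.76 RPKM) stood above all Ms4a genes, with no overlap between their libraries or with the next gene. They were followed by Ms4a4c (15.6 ± 12.1 RPKM), Ms4a6d (10.8 ± 6.13 RPKM), Ly6c2 (9.73 ± 8.73 RPKM), Ms4a6c (6.91 ± 3.05 RPKM), Ms4a4d (6.59 ± 1.68 RPKM) and Ms4a6b (4.24 ± 1.93 RPKM), and the libraries of neighbours in this order overlapped. Ms4a7 (1.71 ± 0.839 RPKM) and Ms4a4b (0.359 ± 0.209 RPKM) were lowest, apart from Ms4a6b and from each other. Ms4a4b is measured over 8780 bases of annotated exon, much more than its longest coding transcript of 4750 bases, which lowers its RPKM.

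In the cold the order was another. In WT Cold, Ly6a (112 ± 8.89 RPKM) and Ly6c1 (92.0 ± 13.7 RPKM) overlapped, and the next gene was Ms4a4d (5.34 ± 0.871 RPKM), which overlapped Ms4a6d (3.96 ± 1.28 RPKM). Ms4a4c went from rank 3 in WT RT to rank 7 (0.462 ± 0.355 RPKM), and Ly6c2 from rank 5 to rank 9 (0.329 ± 0.190 RPKM), where both overlapped Ms4a7 (0.332 ± 0.0240 RPKM). GCN2 KO-labelled cold libraries ran from Ly6a at 96.2 ± 1.55 RPKM to Ms4a4b at 0.0704 ± 0.0324 RPKM, with Ms4a4c and Ly6c2 at 0.490 ± 0.273 and 0.451 ± 0.191 RPKM.

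**Figure D1:**
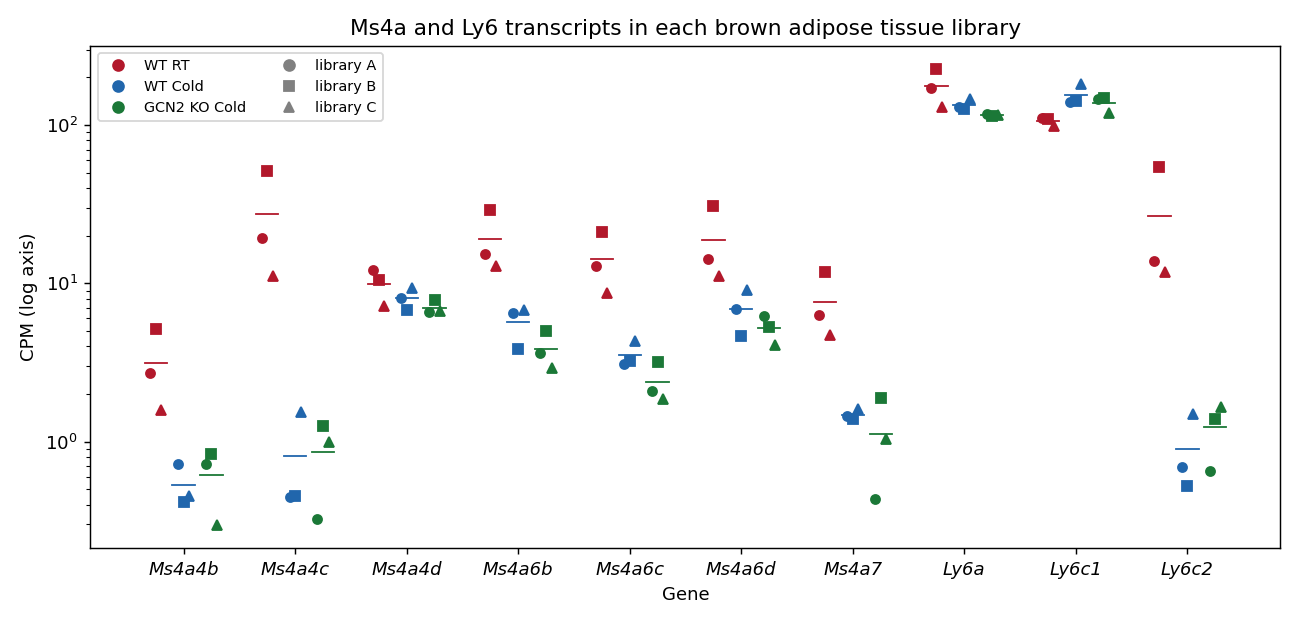
CPM of each of the 10 genes on a log axis in the 9 libraries. Colours mark the group, symbols the library within a group and short lines the group mean. Ms4a4c and Ly6c2 were at 11.1 CPM or more in every WT RT library and at 1.66 CPM or less in every cold library, while Ly6a, Ly6c1 and Ms4a4d lay close together in the 3 groups.

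Ly6c2 and Ms4a4c differed most between WT RT and the cold. Ly6c2 had 13.9, 54.2 and 11.8 CPM in WT RT libraries A, B and C, 0.691, 0.521 and 1.49 CPM in WT Cold, and 0.651, 1.39 and 1.66 CPM in GCN2 KO-labelled cold libraries. WT RT library B stood 4.22-fold above the mean of the other WT RT libraries, and both cold groups lay far below all of WT RT. On the log2(value + 1) scale of the table, Ly6c2 was lower in WT Cold than in WT RT by a log2 fold change of -4.53 ± 0.60 (SE), and by -3.85 without WT RT library B. For GCN2 KO-labelled cold libraries the log2 fold change from WT RT was -3.93 ± 0.56, and -3.26 without that library. The cold values rest on few reads, 15 to 45 per library.

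Ms4a4c, an Ms4a gene of monocytes and lymphocytes, had 19.4, 51.3 and 11.1 CPM in WT RT, 0.449, 0.452 and 1.53 CPM in WT Cold, and 0.325, 1.25 and 0.998 CPM in GCN2 KO-labelled cold libraries. Again WT RT library B was highest and neither cold group overlapped WT RT. The log2 fold change was -4.88 ± 0.62 in WT Cold and -4.64 ± 0.60 in GCN2 KO-labelled cold libraries, both against WT RT. Without WT RT library B the values were -4.30 and -4.06.

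Ms4a4b, known from T cells, had a smaller log2 fold change than its near-copy Ms4a4c, and both fell in the cold. It had 2.73, 5.17 and 1.58 CPM in WT RT, 0.725, 0.417 and 0.452 CPM in WT Cold, and 0.723, 0.834 and 0.296 CPM in GCN2 KO-labelled cold libraries. All cold libraries lay below all WT RT libraries, with only 8 to 24 reads each in the cold. The log2 fold change was -2.29 ± 0.43 in WT Cold, or -1.88 without WT RT library B, and -2.05 ± 0.50 in GCN2 KO-labelled cold libraries. The latter was no longer past the test's threshold without WT RT library B, at -1.63 ± 0.51.

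Ms4a7, expressed by tissue macrophages, had 6.27, 11.8 and 4.73 CPM in WT RT, 1.45, 1.39 and 1.60 CPM in WT Cold, and 0.434, 1.88 and 1.03 CPM in GCN2 KO-labelled cold libraries. WT Cold libraries were close together, and those labelled GCN2 KO Cold spread to both sides of them. The log2 fold change from WT RT was -2.15 ± 0.31 in WT Cold and -2.65 ± 0.52 in GCN2 KO-labelled cold libraries. These were -1.80 and -2.30 without WT RT library B.

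The Ms4a6 genes, known from monocytes and macrophages, and in the case of Ms4a6b also from T cells, formed the middle of the range. Ms4a6c had 12.9, 20.96 and 8.67 CPM in WT RT, 3.11, 3.23 and 4.31 CPM in WT Cold, and 2.10, 3.20 and 1.85 CPM in GCN2 KO-labelled cold libraries. Ms4a6b had 15.3, 28.9 and 12.8 CPM in WT RT, 6.49, 3.86 and 6.74 CPM in WT Cold, and 3.62, 5.01 and 2.92 CPM in GCN2 KO-labelled cold libraries. Ms4a6d had 14.2, 30.9 and 11.2 CPM in WT RT, 6.91, 4.62 and 9.07 CPM in WT Cold, and 6.18, 5.28 and 4.10 CPM in GCN2 KO-labelled cold libraries. For each of the 3 genes every cold library was below every WT RT library, and for Ms4a6d the gap between WT Cold library C and WT RT library C was small. In WT Cold against WT RT the log2 fold changes were -1.82 ± 0.30 for Ms4a6c, -1.60 ± 0.32 for Ms4a6b and -1.27 ± 0.38 for Ms4a6d. Against the same WT RT libraries, those labelled GCN2 KO Cold gave -2.30 ± 0.32, -2.04 ± 0.30 and -1.52 ± 0.33. Leaving out WT RT library B gave -1.52 and -1.99 for Ms4a6c, -1.27 and -1.71 for Ms4a6b, and -1.11 for Ms4a6d in GCN2 KO-labelled cold libraries. The call for Ms4a6d in WT Cold was lost without WT RT library B (-0.86 ± 0.29), and also without WT RT library A (-1.41), WT Cold library A (-1.29) or WT Cold library B (-1.01).

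The other 3 genes were not called in either comparison with WT RT. Ms4a4d had 12.2, 10.5 and 7.19 CPM in WT RT, 8.05, 6.78 and 9.41 CPM in WT Cold, and 6.55, 7.82 and 6.73 CPM in GCN2 KO-labelled cold libraries. The groups overlapped, and the log2 fold changes were -0.20 ± 0.21 and -0.27 ± 0.19, or -0.16 and -0.23 without WT RT library B. Ly6a had 173, 227 and 131 CPM in WT RT, 130, 127 and 147 CPM in WT Cold, and 117, 114 and 116 CPM in GCN2 KO-labelled cold libraries. WT Cold overlapped WT RT, while GCN2 KO-labelled cold libraries lay below it, with log2 fold changes of -0.28 ± 0.17 and -0.37 ± 0.15, or -0.10 and -0.19 without WT RT library B.

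Ly6c1 was the only one of the 10 genes with higher values in the cold. It had 111, 109 and 99.3 CPM in WT RT, 140, 142 and 181 CPM in WT Cold, and 147, 148 and 120 CPM in GCN2 KO-labelled cold libraries. Every cold library was above every WT RT library. The log2 fold changes of 0.61 ± 0.12 and 0.57 ± 0.09 were below the threshold of 1 that a call required, and without WT RT library B they were 0.61 and 0.57. Thus Ly6c1 and its paralog Ly6c2 had opposite signs in both comparisons, under each alternative that was run.

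In total, 7 of the 10 genes were called lower in WT Cold than in WT RT, against 5.15% of all 16679 genes called lower. Calls required both an adjusted p under 0.05 and a log2 fold change beyond 1 in either direction. The groups did not overlap for 7 genes with WT Cold below and for Ly6c1 with WT Cold above, while 22.8% of all genes lay wholly below and 22.8% wholly above. In the GCN2 KO-labelled cold libraries against WT RT, the same 7 genes were called lower, against 7.58% of all 16560 genes, 8 lay wholly below, against 25.5%, and Ly6c1 lay wholly above, against 23.7%. The median log2 fold change of the 10 genes was -1.71 and -2.04 in the 2 comparisons, and that of all genes was 0.003 and 0.009. The 10 genes were named with these comparisons known, so the counts are not evidence about the families. Both comparisons share the WT RT libraries. In bulk tissue, fewer cells of a type and less RNA per cell cannot be told apart.

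**Figure D2:**
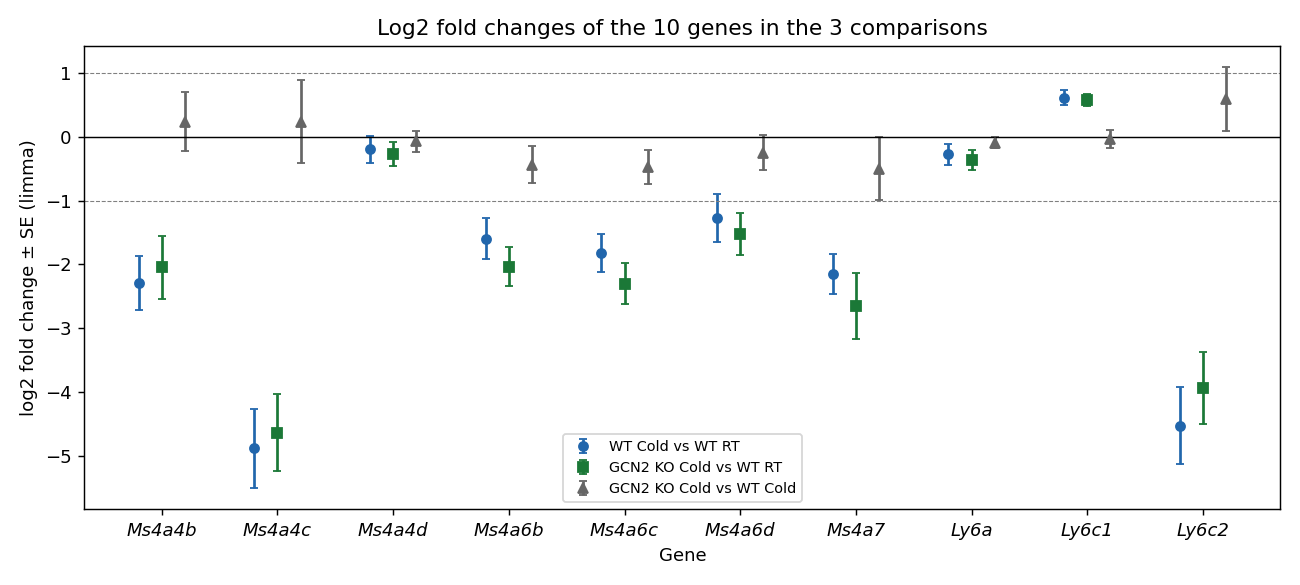
Log2 fold change ± SE (limma, on log2(value + 1)) of each of the 10 genes in the 3 comparisons, 3 libraries against 3. Dashed lines mark the threshold of 1 in each direction. The values against WT RT run from -4.88 for Ms4a4c to 0.61 for Ly6c1, and those of GCN2 KO Cold against WT Cold from -0.50 for Ms4a7 to 0.59 for Ly6c2.

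To assess whether the genotype label went with a difference in the cold, GCN2 KO-labelled cold libraries were set against WT Cold. The genes were named with the comparisons against WT RT known, and both cold groups took part in those, so this comparison shares all its libraries with them. None of the 10 genes was called, against 0.257% of all 16312 genes, and none had an unadjusted p under 0.05, against 15.3% of all genes. DESeq2 and edgeR on the recovered reads called none of the 10 either. The groups overlapped for all 10 genes. The median log2 fold change of the 10 genes was -0.08, and that of all genes was -0.003.

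By gene, the highest value was that of Ly6c2, with a log2 fold change of 0.59 ± 0.50 (adjusted p = 0.635, limma) and a 95% confidence interval from -0.59 to 1.76. With 1 library left out it ran from 0.28 without WT Cold library B to 1.03 without WT Cold library C, and was not called. Ms4a4b and Ms4a4c were both at 0.24 (adjusted p = 0.854 and 0.900, limma), and the interval of Ms4a4c ran from -1.28 to 1.75. As a ratio, the interval of Ms4a4c ran from 0.411 to 3.37, so the data do not exclude ratios within these bounds in this low gene. Below 0 were Ms4a7 at -0.50 ± 0.49 (adjusted p = 0.683, limma), Ms4a6c at -0.48 ± 0.27 (adjusted p = 0.456, limma), Ms4a6b at -0.44 ± 0.28 (adjusted p = 0.527, limma) and Ms4a6d at -0.25 ± 0.27 (adjusted p = 0.719, limma). Narrower intervals were found for Ly6a, Ly6c1 and Ms4a4d. Ly6a was at -0.09 with an interval from -0.29 to 0.11 (adjusted p = 0.661, limma), Ly6c1 at -0.04 with an interval from -0.36 to 0.28 (adjusted p = 0.925, limma), and Ms4a4d at -0.07 with an interval from -0.47 to 0.32 (adjusted p = 0.873, limma).

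Ms4a4c, one of the lowest genes in the cold, ranged from 0.325 to 1.53 CPM over the cold libraries and was highest in WT Cold library C and GCN2 KO Cold library B. The same 2 libraries had the highest summed level of interferon-gamma-induced genes in the cold, 257 and 244 CPM, against 147 to 179 CPM in the other 4. Ly6c2, however, was highest in GCN2 KO Cold library C, at 1.66 CPM, where that sum was 167 CPM. The part of the interferon-gamma-induced genes in the result was not tested. Without libraries C of both groups, again none of the 10 was called. Ms4a6c then stood at -0.16 (adjusted p = 0.820, limma), Ms4a6b at -0.11 (adjusted p = 0.899, limma) and Ly6c2 at 0.76 (adjusted p = 0.505, limma), and Ms4a4d, Ms4a6d and Ly6c1 changed sign.

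The rest of each family shows how the 10 genes sit among their neighbours. Of 16 other Ms4a family genes in the list, 8 were listed in the data. Ms4a14, next to Ms4a7, fell in both comparisons, with log2 fold changes of -2.45 ± 0.52 and -2.35 ± 0.40, from 1.71, 2.47 and 1.05 CPM in WT RT to between 0.139 and 0.553 CPM in the cold. The other 7 were not called, among them Ms4a1 of B cells, at 0.11 ± 0.28 and -0.53 ± 0.39. Ms4a4a, which lies between Ms4a7 and Ms4a4c and is known from macrophages, had 7.65, 9.003 and 4.60 CPM in WT RT, 9.67, 7.30 and 14.9 CPM in WT Cold, and 5.82, 4.24 and 3.40 CPM in GCN2 KO-labelled cold libraries. Its log2 fold changes against WT RT were 0.66 ± 0.31 and -0.43 ± 0.27, and between the cold groups -1.09 ± 0.30 (adjusted p = 0.174, limma). Ms4a4a thus lay between 2 genes that fell and was not called itself.

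**Figure D3:**
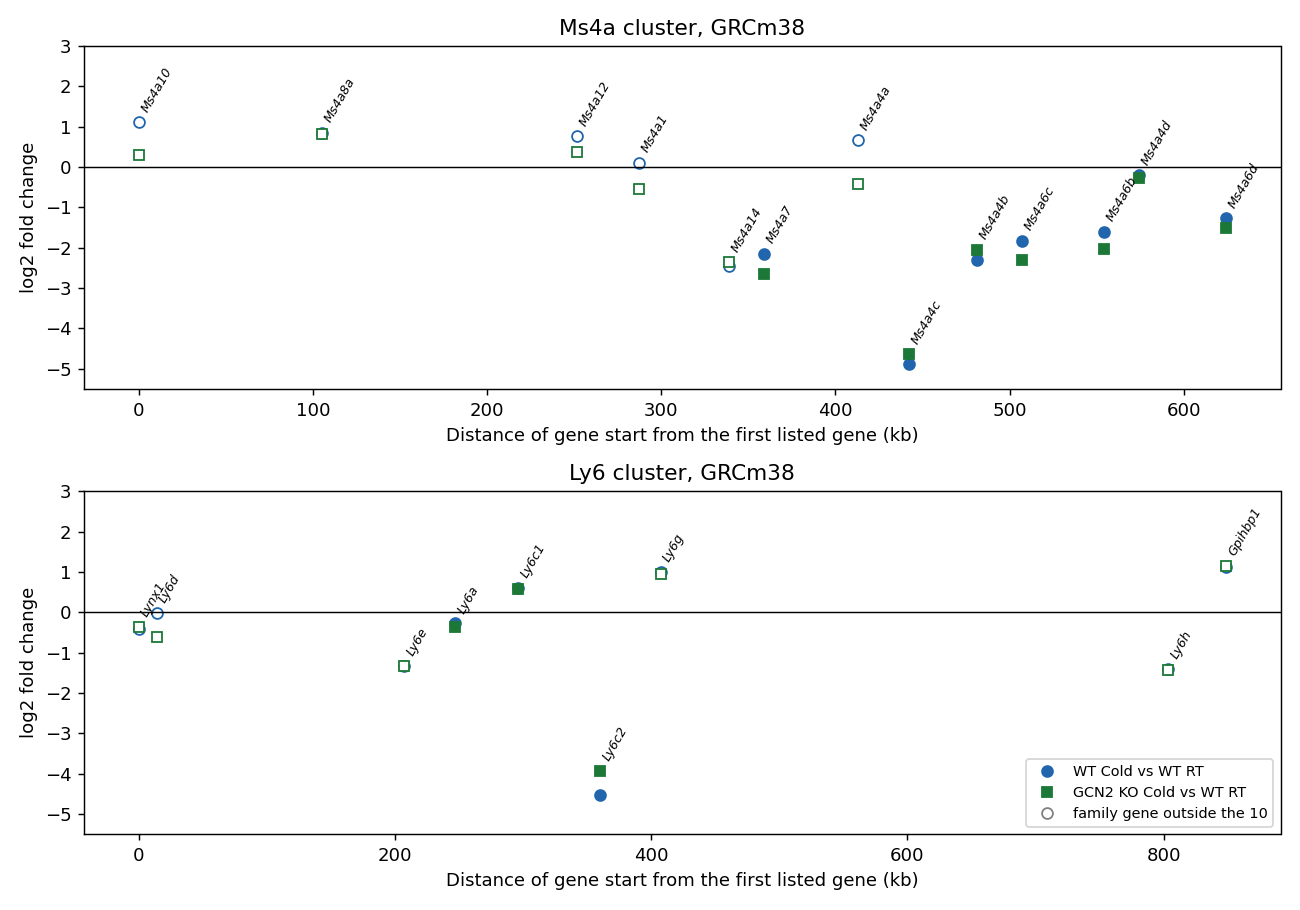
Log2 fold change against WT RT of the 13 listed genes of the Ms4a cluster and the 9 of the Ly6 cluster, by distance of the gene's start from that of the first gene (kb, GRCm38). Filled symbols are the 10 genes and open symbols other family genes. Values in the Ms4a cluster run from -4.88 for Ms4a4c to 1.11 for the barely expressed Ms4a10, and in the Ly6 cluster from -4.53 for Ly6c2 to 1.15 for Gpihbp1.

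Of 36 other Ly6 family genes in the list, 13 were listed in the data. Ly6e, an interferon-inducible member, fell in both comparisons, from 279, 388 and 231 CPM in WT RT to 99.7, 105 and 126 CPM in WT Cold and 90.7, 116 and 96.4 CPM in GCN2 KO-labelled cold libraries. Its log2 fold changes were -1.34 ± 0.17 in both. Gpihbp1, which carries lipoprotein lipase across capillary endothelium, rose from 85.6, 83.4 and 89.7 CPM to 176, 178 and 175 CPM in WT Cold and 154, 161 and 186 CPM in GCN2 KO-labelled cold libraries. These were log2 fold changes of 1.11 ± 0.08 and 1.15 ± 0.10. Cd59b, an inhibitor of complement, was called lower only in GCN2 KO-labelled cold libraries against WT RT (-1.55 ± 0.16), with -0.91 ± 0.19 in WT Cold. Its difference between the cold groups was -0.65 ± 0.20 (adjusted p = 0.202, limma), so that it was not shown to differ between them. Its paralog Cd59a, at 128.6, 114 and 135 CPM in WT RT, had 121, 109 and 116 CPM in WT Cold and 63.97, 70.4 and 74.7 CPM in GCN2 KO-labelled cold libraries. The cold groups did not overlap, and the difference of -0.61 ± 0.09 had an adjusted p of 0.046 (limma) but was below the threshold of 1 that a call required. Against WT RT the log2 fold changes of Cd59a were -0.04 ± 0.10 and -0.65 ± 0.11. Cd59a and Cd59b lie on chromosome 2, as does Eif2ak4, and the part of that position in their values was not tested. Ly6g, the neutrophil antigen beside Ly6c2, had overlapping groups and log2 fold changes of 0.997 ± 0.51 and 0.94 ± 0.53.

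Because several of the 10 genes are known to respond to interferons, genes of that pathway were listed as well. Of 26 genes of ligands, receptors and signal transducers, 19 were listed in the data. Of those 19, 4 were called lower in WT Cold against WT RT, and 5 in GCN2 KO-labelled cold libraries, against 5.15% and 7.58% of all genes. The same shares of all genes stand beside the lists that follow. Irf7, a transcription factor that amplifies interferon production, was at -2.51 ± 0.31 and -2.53 ± 0.30. Stat2, which carries the type I interferon signal to the nucleus, was at -1.41 ± 0.18 and -1.34 ± 0.17. Among 34 type I interferon-stimulated genes, 30 and 31 were called lower in the 2 comparisons, with medians of -2.16 and -2.44. Examples in WT Cold were the antiviral gene Ifit3 (-3.74 ± 0.36) and the membrane protein gene Bst2 (-1.82 ± 0.23). Ifi27l2a was called higher in GCN2 KO-labelled cold libraries against WT RT, at 1.17 ± 0.17. Among 22 interferon-gamma-induced genes, 20 and 21 were called lower, with medians of -1.66 and -1.64, for example the GTPase genes Gbp3 (-2.54 ± 0.20) and Irgm2 (-1.77 ± 0.16) in WT Cold. None of the 3 lists had a gene called between the cold groups by limma, with 2 of 19, 5 of 34 and 0 of 22 genes at an unadjusted p under 0.05, against 15.3% of all genes. Without WT RT library B, 29 of the 34 and 16 of the 22 were called lower in both comparisons, against 3.95% and 5.79% of all genes. Of the 19, 3 were then called lower in WT Cold and 4 in GCN2 KO-labelled cold libraries.

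**Figure D4:**
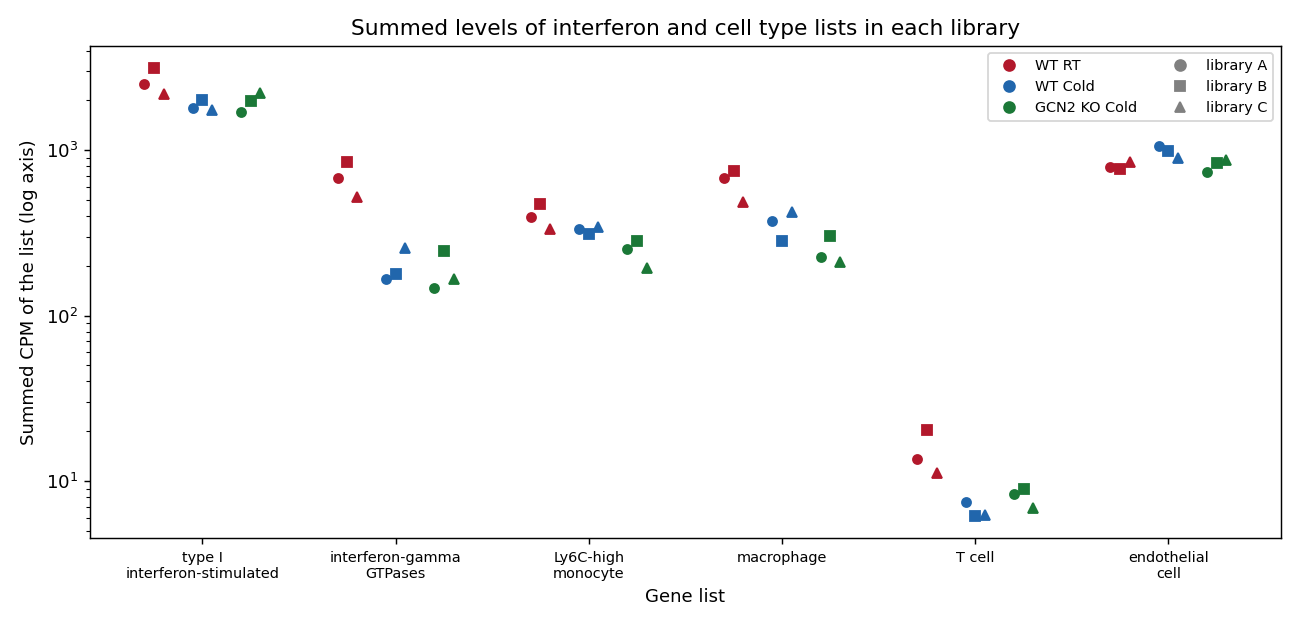
Summed CPM of 6 gene lists on a log axis in the 9 libraries, with colours for the group and symbols for the library. The interferon-gamma-induced list was at 519 to 843 CPM in WT RT and at 147 to 257 CPM in the cold, and the endothelial list was at 772 to 853 CPM in WT RT and 736 to 1060 CPM in the cold.

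Markers of the cells that carry these proteins moved with the 10 genes in part. Their counts called lower in the 2 comparisons with WT RT stand against 5.15% and 7.58% of all genes. Without WT RT library B these shares were 3.95% and 5.79%. All 13 macrophage markers of the list were present, with summed levels of 489 to 749 CPM in WT RT, 282 to 421 CPM in WT Cold and 210 to 302 CPM in GCN2 KO-labelled cold libraries. Of these 13, 4 were called lower in WT Cold and 9 in GCN2 KO-labelled cold libraries, the former being Cd68 (-1.96 ± 0.28), Fcgr1 (-3.98 ± 0.53), Adgre1 (-1.54 ± 0.22) and Cx3cr1 (-2.20 ± 0.54). The medians were -0.66 and -1.13. In WT Cold 3 of the 13 had a positive sign and were not called, Cd163 (0.89 ± 0.29), Mertk (0.61 ± 0.11) and Cd14 (0.37 ± 0.23), and in GCN2 KO-labelled cold libraries Mertk (0.38 ± 0.11) and Cd163 (0.28 ± 0.26) did. Without WT RT library B the call for Cx3cr1 in WT Cold was lost (-1.93) and Csf1r was called (-1.03). Between the cold groups 0 of the 13 were called, 11 had a negative sign, the median was -0.43, or -0.22 without libraries C, and 6 had an unadjusted p under 0.05, against 15.3% of all genes (limma). Of 8 markers of Ly6C-high monocytes, 3 and 4 were called lower, and 2 and 3 without WT RT library B. Ccr2, the chemokine receptor of these monocytes, was at -2.87 ± 0.36 and -3.11 ± 0.39, and Chil3 at -2.72 ± 0.57 and -2.46 ± 0.60. The median of the 8 was -0.40 in WT Cold, or -0.15 without WT RT library B, and Fn1, F13a1 and Vcan had a positive sign there, of 0.09, 0.07 and 0.02. In GCN2 KO-labelled cold libraries all 8 had a negative sign, with a median of -1.06, or -0.82 without WT RT library B. Their summed level, set mostly by Fn1, was 333 to 472 CPM in WT RT, 311 to 341 CPM in WT Cold and 195 to 283 CPM in GCN2 KO-labelled cold libraries. The part of these cells in the values of the 10 genes was not tested.

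Lymphocyte lists were low, and the counts of calls in this paragraph stand against 5.15% and 7.58% of all genes called lower, or 3.95% and 5.79% without WT RT library B. Of 13 T cell markers, 10 were present, at a summed 11.1 to 20.5 CPM in WT RT, 6.15 to 7.43 CPM in WT Cold and 6.87 to 9.004 CPM in GCN2 KO-labelled cold libraries, and 2 were called lower in each comparison, Il7r and Lck. Of 8 NK cell markers 5 were present, with 1 called lower in WT Cold, and of 8 B cell markers 7 were present, with 1 called lower in WT Cold, Ighm. Of 9 neutrophil markers 7 were present, with Csf3r and Mmp9 called lower in each comparison, and of 8 dendritic cell markers 7 were present, with Itgax and Cd209a called lower in GCN2 KO-labelled cold libraries. Neutrophil markers were mixed, with 4 and 3 of the 7 at a positive sign, a median of 0.10 in WT Cold, or 0.62 without WT RT library B, and -0.71 in GCN2 KO-labelled cold libraries, and S100a9 at 0.85 ± 0.44 and 0.996 ± 0.36. Most of the calls in these lists were lost without WT RT library B, though the log2 fold changes kept their sign. In WT Cold they were then -1.07 for Lck, -1.08 for Csf3r and -1.27 for the NK cell marker Nkg7, and in GCN2 KO-labelled cold libraries -1.58 for Il7r, -1.06 for Lck, -1.58 for Csf3r, -1.26 for Itgax and -1.22 for Cd209a. Calls for Il7r in WT Cold, Mmp9 and Ighm were made without it too, and S100a9 was then called higher in GCN2 KO-labelled cold libraries (1.35). The 10 endothelial markers had medians of 0.26 and 0.20 beside the values of 0.61 and 0.57 for Ly6c1, or 0.20 and 0.11 beside 0.61 and 0.57 without WT RT library B, and none was called by limma, while 6 and 5 of the 10 had an unadjusted p under 0.05, against 40.9% and 44.4% of all genes. Among them Pecam1 was at 0.66 ± 0.11 and 0.53 ± 0.09, and Kdr at 0.47 ± 0.09 and 0.29 ± 0.14. The summed brown adipocyte markers, 22417 to 24048 CPM in WT RT and 27229 to 31373 CPM in the cold, were high in every library.

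Other tissue components moved with the groups as well. Red blood cell transcripts were at a summed 261 to 345 CPM in WT RT, 573 to 2282 CPM in WT Cold and 1085 to 2083 CPM in GCN2 KO-labelled cold libraries, and 5 and 7 of 7 were called higher than in WT RT, against 2.99% and 3.01% of all genes. Their median log2 fold changes were 1.64 and 2.31. In WT Cold 0 of 7 were called when any single WT RT library was left out, with medians of 1.505 to 1.72, and 3 were called without WT Cold library B, with a median of 1.02. Skeletal muscle transcripts were at 2567 to 3113 CPM in WT RT, 2410 to 4012 CPM in WT Cold and 344 to 1426 CPM in GCN2 KO-labelled cold libraries. Between the cold groups their median log2 fold change was -1.86, with 0 of 10 called by limma and by edgeR, 2 called lower by DESeq2, and all 10 at an unadjusted p under 0.05 (limma), against 15.3% of all genes, and 9 of 10 were called lower without libraries C. Their part in the values of the 10 genes was not tested.

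The genes whose profile over the 9 libraries lay closest to the mean profile of the 10 were also found, as a description. Likeness was the root mean square difference of centred log2 CPM, among 14031 other genes with a mean of at least 1 CPM. The closest were Ptprc (0.0976), which makes the pan-leukocyte antigen CD45, and Cd48 (0.128), followed by Sp140, Lcp1, Il10ra, Bst2, Sp110 and Lcp2 (0.151 to 0.178). Ptprc had 24.7, 42.8 and 17.5 CPM in WT RT, 6.91, 5.77 and 8.61 CPM in WT Cold, and 5.71, 8.73 and 4.95 CPM in GCN2 KO-labelled cold libraries. By the same measure Ms4a6b (0.219) and Ms4a6c (0.219) were closest to the mean of the 10, and Ms4a4c (1.41), Ly6c2 (1.20) and Ly6c1 (1.19) were farthest from it.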

How the data were processed

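The data are 9 RNA libraries of BAT in 3 groups of 3. Per the labels and the study's methods, poly(A) RNA was sequenced, reads were trimmed (Trimmomatic 0.36), aligned (STAR 2.5.2b, build GRCm39 per the labels) and counted when unique to exons (featureCounts of Subread 1.5.2), and groups were compared with DESeq2. The authors deposited 3 tables, 1 for each comparison, whose signal per gene is a read count scaled by the library's size factor, set anew in every table. Columns of log2 fold changes and p-values by the authors are in the same tables and were left out. Columns carry library codes, tied to a group but to no mouse, and 0 columns came from other samples. Whole reads were recovered for 100% of values (tolerance 0.001) and gave the CPM, RPKM and depth. The genes' exon lengths and positions come from GENCODE M21 (GRCm38) and the promoters from RefSeq (GRCm38.p6), both another build than that of the labels, so no coordinates come from the deposited tables.

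These scaled values were tested with limma (3.58.1, in R 4.3.3) using a mean-variance trend, on log2(value + 1), with the 6 libraries of a table in a fit, and Benjamini-Hochberg adjustment over all its genes. Values from different tables were compared only as CPM or RPKM. Alternatives were DESeq2 (1.42.0) and edgeR's quasi-likelihood test (4.0.16) on the recovered reads, pseudocounts of 0.5 and 5, a mean normalized count of at least 50, no trend, all 3 groups in 1 fit with CPM scaling, no fold change threshold and leaving out each library. Leaving out libraries C of both cold groups was added after seeing the data. The tests were tested on simulated data.

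The 10 genes and the gene lists were chosen with earlier results of these data known. From each list, up to 4 called genes with the highest mean were named, or 2 where none was called, and 1 gene that this rule would name is not reported here. Ms4a1, Ms4a4a, Ms4a10, Ly6g, Cd59a and the marker genes given for a positive sign or a call that changed without 1 library were named in addition after their values were seen. P-values measure the spread between the mice of a group. Counting limits the precision of the lowest genes, at 8 reads or more per library.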

Additional observations from a re-analysis of the deposited data

How the results depend on the processing

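With 3 libraries a group, the spread between mice limits most values, and reads limit Ms4a4b, Ms4a4c and Ly6c2 in the cold. Under every alternative run, the number of the 10 genes called changed by at most 1 in each comparison, and their median moved by less than the SD of that median between libraries of a group (0.36 between the cold groups, 0.55 for WT Cold and 0.57 for GCN2 KO Cold against WT RT), though between the cold groups it changed sign. Counts against WT RT were 6 to 8 of 10, with 6 in WT Cold without the trend and 8 in both comparisons without the fold change threshold. Leaving out 1 library at a time gave 6 to 7 of 10 in both comparisons with WT RT, and medians from -1.95 to -1.39 for WT Cold, from -2.33 to -1.67 for GCN2 KO Cold against WT RT and from -0.16 to 0.02 between the cold groups. Ms4a6d in WT Cold was also lost without the trend (-1.27). None of the 10 genes was called between the cold groups under any alternative, but signs changed there. Without libraries C of both cold groups Ms4a4d was at 0.082, Ms4a6d at 0.14 and Ly6c1 at 0.19, and the median at 0.11. With 1 library left out, Ms4a4b ran from -0.029 to 0.66, Ms4a4c from -0.12 to 0.81, Ms4a4d from -0.19 to 0.058, Ms4a7 from -0.98 to 0.039, Ms4a6d from -0.51 to -0.0095 and Ly6c1 from -0.12 to 0.10. The cause was not tested. The count of all genes called between the cold groups was 42 in the main test, 208 with DESeq2, 33 with edgeR, 189 with all 3 groups in 1 fit and CPM scaling, 6 without the trend, 130 without libraries C and 3 to 22 with 1 library left out. Fitting all 3 groups together with CPM scaling, which changed both choices at once, shifted the median of all genes to -0.12 between the cold groups, -0.08 for WT Cold against WT RT and -0.19 for GCN2 KO Cold against WT RT. It changed the split of calls into higher and lower from 10 and 32 to 15 and 174 between the cold groups, and from 499 and 1255 to 329 and 1774 for GCN2 KO Cold against WT RT, while no log2 fold change of the 10 genes changed sign. No paired analysis was possible because the columns carry library codes and no replicate numbers.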
